A study of Mus musculus with 2 samples.

Results

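Aire is a nuclear protein of medullary thymic epithelial cells (mTECs) that switches on genes of many other organs, so that developing T cells meet their products in the thymus. It has no sequence-specific DNA-binding domain of its own. It works with proteins that modify it, with enzymes that cut or repair DNA at its targets, and with chromatin proteins that read methylated DNA or move nucleosomes. The genes described here encode 9 such partners, chosen by symbol among the 55487 genes of the count table: Sirt1, Hipk2, Parp1, Prkdc, Top1, Top2b, Chd4, Atf7ip and Mbd1. Each symbol matched 1 row.

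The study addressed the effect of spermidine, a polyamine that helps DNA to take up forms such as Z-DNA, on RNA in mTECs. The mice were wild-type C57BL/6J females aged 4 weeks. The treated group received 15 mg/kg of spermidine, dissolved in saline (PBS), into the peritoneum on 7 days, and the control group received PBS alone, with 2 replicates each. The mTEChi gate, with the cells that express Aire, and the post-Aire mTEClo gate were sorted after CD45 depletion. The 4 samples were tagged with antibody-coupled hashtags and run together on the droplet-based 10x Genomics platform, which counts RNA molecules by unique molecular identifiers (UMIs) near the 3' end of the transcript. Whether the replicates came from separate mice was not stated, so p-values measure the spread between the hashed samples alone, and this spread may be technical.

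After filtering, 3739 cells carried the hashtag of 1 sample, 1099 and 778 with spermidine and 1078 and 784 with PBS, at 13316095 to 19893017 UMIs per sample. Clusters were formed without the 9 genes and named from marker lists, and 3579 cells fell into 10 mTEC classes, 8 of which had at least 20 cells in every sample. Class names rest on markers, so that tuft-like means cells with markers of tuft cells. The Aire-stage class held 1076 cells with a median of 20374 UMIs, against 11060 to 29110 in the other 7 classes. It joined an Aire-high cluster led by Mt4 and Fabp6 and a cluster led by kallikrein genes of the Klk1b family. Aire, which helped to name the class, stood at 768 ± 65.8 CPM there (SD, n = 4) and at 862 ± 68.2 CPM in transit-amplifying-like cells, the dividing precursors, with 8.54 to 122 CPM elsewhere. Neither of the Aire-stage clusters had a marker of its list among its 10 leading genes, and the name rests on 6 and 9 of 13 markers that were more than 2-fold higher. Among other cell types the summed markers of red blood cells in Aire-stage cells were 384 and 1048 CPM with spermidine and 172 and 148 CPM with PBS, and their part in the results below was not tested. CPM are UMI counts relative to all counts of the sample and class, scaled with edgeR's TMM factors, and mean levels over the 4 samples are given with their SD.

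The regions around the annotated starts of the genes were read first, since the study concerns Z-DNA, a left-handed form that alternating runs such as CGCGCG or CACACACA can adopt. RefSeq starts on GRCm38.p6 were matched for 7 of the 9 genes, with 9 starts in all. CGCGCG, which reads the same on both strands, was present between 250 bases before and 50 bases after 5 of the 9 starts, at Sirt1, Parp1, 1 of 2 starts of Hipk2 and both of Chd4, whose windows overlap and share 1 run. Among all 32851 windows of this length, 11.3% held it. CACACACA or its reverse complement TGTGTGTG was present at Top2b alone among the 9 starts, and in 4.09% of all windows. The window of Sirt1 had 79.0% G and C, that of Chd4 printed here 68.3% and that of Top2b 58.3%, against a median of 52.7%, and the part of base composition in the matches was not tested. These 3 windows are shown because they hold the longest run (Chd4), the CGCGCG run of the gene whose level peaked in Aire-stage cells (Sirt1) and the 1 window with the CACACACA or TGTGTGTG run (Top2b), at chr10:63338986-63339285 on the minus strand for Sirt1, chr14:16364956-16365255 on the plus strand for Top2b and chr6:125095913-125096212 on the plus strand for Chd4. Capitals mark the alternating run.
Sirt1: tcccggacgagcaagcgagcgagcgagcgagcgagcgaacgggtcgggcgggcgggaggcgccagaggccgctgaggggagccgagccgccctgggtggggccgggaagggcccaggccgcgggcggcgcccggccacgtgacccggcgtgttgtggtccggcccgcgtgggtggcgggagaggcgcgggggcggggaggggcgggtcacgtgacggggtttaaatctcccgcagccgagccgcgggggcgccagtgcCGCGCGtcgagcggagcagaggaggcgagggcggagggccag
Top2b: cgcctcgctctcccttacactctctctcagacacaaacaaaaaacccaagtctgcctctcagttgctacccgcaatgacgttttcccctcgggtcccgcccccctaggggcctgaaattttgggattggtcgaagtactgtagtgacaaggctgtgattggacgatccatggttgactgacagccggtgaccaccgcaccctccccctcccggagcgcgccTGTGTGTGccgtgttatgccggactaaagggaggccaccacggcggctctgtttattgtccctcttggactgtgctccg
Chd4: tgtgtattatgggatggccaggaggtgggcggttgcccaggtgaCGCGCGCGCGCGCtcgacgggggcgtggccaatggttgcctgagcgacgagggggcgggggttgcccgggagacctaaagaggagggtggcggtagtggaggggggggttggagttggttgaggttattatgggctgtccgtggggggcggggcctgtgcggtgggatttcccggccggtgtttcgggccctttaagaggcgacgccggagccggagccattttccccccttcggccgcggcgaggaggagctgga
A match describes letters only and says nothing of the DNA form in these cells.

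In CPM across classes, the partner genes did not share 1 pattern. Sirt1 was highest in Aire-stage cells, Top2b and Atf7ip were lowest there, and the other 6 peaked in other classes. In 63 contrasts of Aire-stage cells over another class (9 genes by 7 classes), 40 passed, 10 of them higher and 30 lower. The threshold was an adjusted p of 0.05 in edgeR's quasi-likelihood test, with the hashed sample as a block and Benjamini-Hochberg adjustment over 13289 genes. Against transit-amplifying-like cells 1 partner gene was higher and 5 were lower, where 32.2% of all genes tested were higher and 26.7% lower. Against tuft-like cells it was 1 and 5 (37.1% of all genes higher and 33.8% lower), and against neuroendocrine-like cells 1 and 5 (32.4% and 28.6%). Against immature-like cells it was 1 and 6 (32.1% and 27.8%), and against keratinocyte-like cells 1 and 4 (29.4% and 27%). Against microfold-like cells 2 were higher and 3 lower (27.2% and 23%), and against enterocyte- or hepatocyte-like cells 3 and 2 (23.8% and 22.9%). The median log2 fold change of the 9 genes lay between -0.72 over immature-like cells and 0.06 over enterocyte- or hepatocyte-like cells, while that of all genes tested lay between 0.02 and 0.13.

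**Figure D1:**
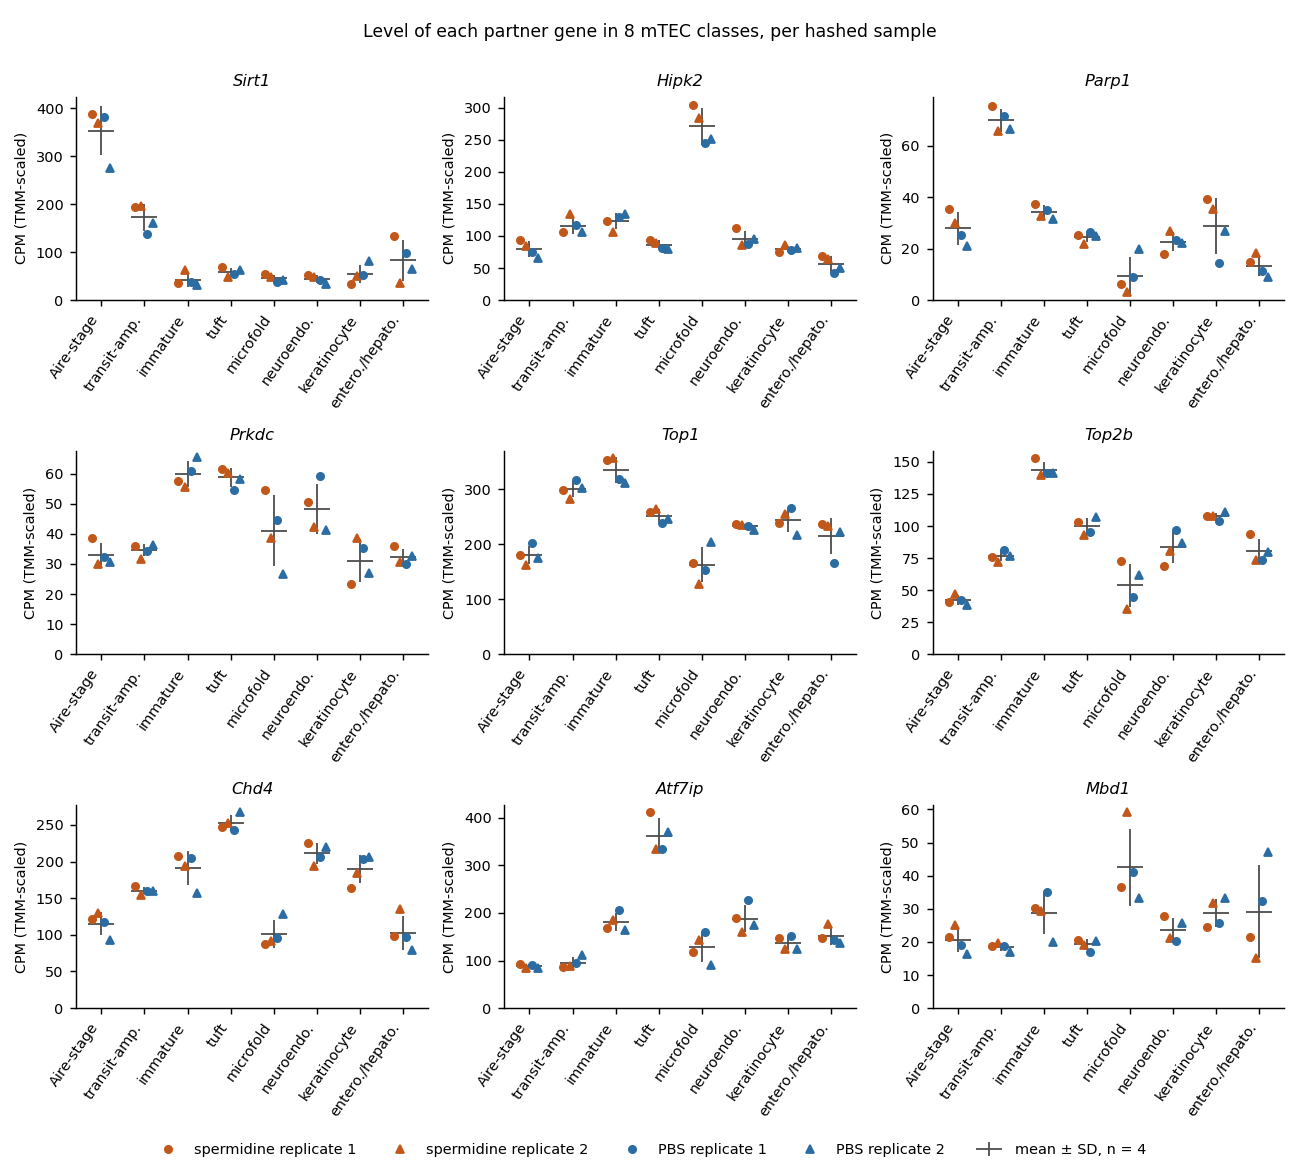
Level of each of the 9 genes in CPM (y axis, TMM-scaled, each panel with its own scale from 0) in 8 mTEC classes (x axis). Each point is a hashed sample, orange for spermidine and blue for PBS, and the grey cross is the mean ± SD over 4 samples. Sirt1 stands highest in Aire-stage cells at 276 to 387 CPM, Hipk2 in microfold-like cells at 244 to 304 CPM, and Atf7ip in tuft-like cells at 334 to 411 CPM.

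Sirt1 and Hipk2 encode enzymes that modify Aire itself. Sirt1 is a deacetylase that removes acetyl groups from Aire and is known to be needed for its activity in mTECs. Its gene (ENSMUSG00000020063.16) lies on chromosome 10, at chr10:63319005-63381704 on the minus strand of GRCm38. In Aire-stage cells it had 387 and 369 CPM in spermidine replicates 1 and 2, and 381 and 276 CPM in PBS replicates 1 and 2. In transit-amplifying-like cells it had 194 and 196 CPM with spermidine and 138 and 162 CPM with PBS. Every Aire-stage sample was above every transit-amplifying-like sample, and transit-amplifying-like cells were above every sample of the classes further down.

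The order of the means ran from 353 ± 51.9 CPM in Aire-stage cells over 172 ± 28.0 CPM in transit-amplifying-like cells to 83.2 ± 42.5 CPM in enterocyte- or hepatocyte-like cells (SD, n = 4). From there to 40.0 CPM in ciliated-like cells each class overlapped the next, and muscle-like cells came last at 14.1 CPM. Sirt1 was higher in Aire-stage cells in all 7 contrasts. The log2 fold change was 1.02 ± 0.21 (SE) over transit-amplifying-like cells (edgeR adjusted p = 0.0001357) and 2.10 ± 0.23 over enterocyte- or hepatocyte-like cells. It was 2.60 over tuft-like, 2.70 over keratinocyte-like, 2.99 over microfold-like, 3.03 over neuroendocrine-like and 3.12 ± 0.25 over immature-like cells, the last with an edgeR adjusted p of 6.041e-11. With samples assigned from 4 hashtags in place of 6 the fold change over transit-amplifying-like cells was 0.52, with an edgeR adjusted p of 0.055, so that call was lost. That assignment admits 880 barcodes that the assignment from 6 hashtags called doublets.

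Per cell the same order held for the leading classes: 6.77 ± 1.09 Sirt1 UMIs in Aire-stage cells, against 4.43 ± 0.76 in transit-amplifying-like cells and 0.49 to 1.09 in the other 6 classes (SD, n = 4). No single cell carried the sum, since the cell with the most Sirt1 UMIs gave 1.95% to 5.09% of a sample's Aire-stage Sirt1 count. Aire itself had a log2 fold change of -0.17 ± 0.23 over transit-amplifying-like cells (edgeR adjusted p = 0.548). Over the 8 classes the genes that followed Sirt1 best among 14247 were Cth and Mybpc3 (Pearson's r = 0.985 and 0.984). Aire had r = 0.86, all on the log2 of mean CPM. These points share 4 libraries and differ in depth.

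Hipk2 is a kinase that phosphorylates Aire. Its gene lies at chr6:38694390-38876165 on the minus strand. It was at 80.1 ± 12.2 CPM in Aire-stage cells and at 271 ± 28.4 CPM in microfold-like cells, where it was highest (SD, n = 4). The microfold-like samples had 304 and 284 CPM with spermidine and 244 and 251 CPM with PBS, all above every sample of the other classes. This peak rests on CPM. Per cell, microfold-like cells had 2.92 ± 0.23 Hipk2 UMIs, transit-amplifying-like 2.98 ± 0.32 and Aire-stage cells 1.54 ± 0.30 (SD, n = 4). Hipk2 was lower in Aire-stage cells than in microfold-like cells by a log2 fold change of -1.73 ± 0.12 (SE, edgeR adjusted p = 2.378e-12). It was also lower than in immature-like cells (-0.64 ± 0.12) and transit-amplifying-like cells (-0.55 ± 0.11), and higher than in enterocyte- or hepatocyte-like cells (0.53 ± 0.13). Its level in Aire-stage cells overlapped that in tuft-like and keratinocyte-like cells. Dock9 and Ints2 followed it best over the 8 classes (r = 0.966 and 0.959).

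Parp1, Prkdc, Top1 and Top2b belong to the DNA break side of Aire's partners. Topoisomerases cut DNA to relieve twist, Top1 in 1 strand and Top2b in both. Parp1 and the DNA-dependent protein kinase, whose catalytic subunit is the product of Prkdc, bind DNA breaks. Over the 8 classes Top1 correlated with Top2b at r = 0.826 and with Parp1 at r = 0.741 (Pearson, log2 of mean CPM). Parp1 correlated with Prkdc at r = 0.00216. These correlations are over points that share the same 4 libraries.

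Top2b (chr14:16365179-16435462, plus strand) was lowest in Aire-stage cells. It had 40.5 and 47.1 CPM in spermidine replicates 1 and 2 and 42.4 and 38.7 CPM in PBS replicates 1 and 2, a mean of 42.2 ± 3.62 CPM (SD, n = 4). In immature-like cells it had 153 and 139 CPM with spermidine and 141 and 142 CPM with PBS. The 2 sets of values lie far apart, and the classes in between ran from 53.8 ± 16.9 CPM in microfold-like to 108 ± 2.68 CPM in keratinocyte-like cells.

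Top2b was lower in Aire-stage cells in 6 of 7 contrasts. The log2 fold change was -1.76 ± 0.12 (SE) over immature-like cells (edgeR adjusted p = 3.307e-12), -1.33 over keratinocyte-like, -1.22 over tuft-like and -0.98 over neuroendocrine-like cells. Over enterocyte- or hepatocyte-like cells it was -0.90 and over transit-amplifying-like cells -0.86 ± 0.12. Over microfold-like cells it was -0.34 ± 0.15 with an edgeR adjusted p of 0.06, and the samples of these classes overlapped. Per cell, microfold-like cells had fewer Top2b UMIs than Aire-stage cells, 0.81 ± 0.075 in Aire-stage and 0.58 ± 0.15 in microfold-like cells (SD, n = 4), with a median depth of 20374 and 11060 UMIs. That low point rests on CPM and not on molecules per cell.

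Top1 (chr2:160645888-160722764, plus strand) was at 179.9 ± 16.9 CPM in Aire-stage cells and highest among the 8 classes in immature-like cells at 335 ± 23.6 CPM (SD, n = 4). Muscle-like cells, with 28 cells in all, were at 411 ± 124 CPM. Top1 was lower in Aire-stage cells than in 5 classes, with log2 fold changes of -0.89 ± 0.11 (SE) over immature-like, -0.74 over transit-amplifying-like, -0.47 over tuft-like, -0.43 over keratinocyte-like and -0.36 ± 0.11 over neuroendocrine-like cells. The last of these was lost without the filter on low counts (edgeR adjusted p = 0.199) and without spermidine replicate 1 (0.0942). Over microfold-like cells it was 0.16 ± 0.12 and over enterocyte- or hepatocyte-like cells -0.22 ± 0.11, neither past the threshold. Per cell, Aire-stage cells had 3.44 ± 0.25 Top1 UMIs, tuft-like 3.23 ± 0.21 and keratinocyte-like cells 3.45 ± 0.48 (SD, n = 4). The lower level than in tuft-like and keratinocyte-like cells thus rests on CPM. Among the 8 classes Top1 per cell was highest in transit-amplifying-like cells at 7.69 ± 0.33, with 4.86 ± 0.25 in immature-like cells.

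Parp1 (chr1:180568924-180601254, plus strand) was highest in transit-amplifying-like cells. It had 27.9 ± 6.25 CPM in Aire-stage cells and 69.9 ± 4.57 CPM in transit-amplifying-like cells (SD, n = 4). The log2 fold change was -1.33 ± 0.19 (SE, edgeR adjusted p = 9.843e-07). It was higher in Aire-stage cells than in microfold-like (1.52 ± 0.33) and enterocyte- or hepatocyte-like cells (1.08 ± 0.27), classes that held 18 and 37 Parp1 UMIs in all. Against the 4 remaining classes it lay between -0.30 and 0.31 and did not pass.

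Prkdc (chr16:15637866-15842235, plus strand) was at 33.0 ± 3.95 CPM in Aire-stage cells. It was at 60.0 ± 4.28 CPM in immature-like and 58.8 ± 3.03 CPM in tuft-like cells (SD, n = 4), which overlapped each other. It was lower in Aire-stage cells than in immature-like (-0.86 ± 0.14, SE), tuft-like (-0.82 ± 0.13) and neuroendocrine-like cells (-0.56 ± 0.14). The last call was lost without PBS replicate 1 (edgeR adjusted p = 0.0553) and without the filter on low counts (0.07). Over transit-amplifying-like cells its log2 fold change was -0.07 ± 0.13.

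Chd4, Atf7ip and Mbd1 act on chromatin. Chd4 is the helicase of the nucleosome-remodelling and deacetylase (NuRD) complex. Atf7ip and Mbd1 form a pair in which Mbd1 reads methylated DNA and Atf7ip brings in a repressive histone methyltransferase, and the pair binds Aire.

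Atf7ip (chr6:136506167-136610862, plus strand) was highest in tuft-like cells and lowest in Aire-stage cells. It had 93.2 and 83.6 CPM in Aire-stage cells with spermidine and 89.6 and 84.7 CPM with PBS, where the 4 samples spanned 83.6 to 93.2 CPM. Tuft-like cells had 411 and 334 CPM with spermidine and 334 and 370.2 CPM with PBS, and no other class reached them. Atf7ip was lower in Aire-stage cells in 6 of 7 contrasts, by a log2 fold change of -2.03 ± 0.12 (SE) over tuft-like cells (edgeR adjusted p = 7.654e-14), -1.09 over neuroendocrine-like and -1.03 over immature-like cells. It was -0.75 over enterocyte- or hepatocyte-like, -0.63 over keratinocyte-like and -0.51 ± 0.14 over microfold-like cells. The last was lost with 4 hashtags (edgeR adjusted p = 0.124), without the filter on low counts (0.0768) and without PBS replicate 1 (0.0665). Over transit-amplifying-like cells the value was -0.12 ± 0.13, and these classes overlapped. Per cell, Aire-stage cells had 1.68 ± 0.15 Atf7ip UMIs and microfold-like cells 1.41 ± 0.50 (SD, n = 4), so the low point of Atf7ip also rests on CPM. Thap3 and Khdc4 followed Atf7ip best over the 8 classes (r = 0.992 and 0.988), and Aire had r = -0.776.

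Chd4 (chr6:125095981-125130591, plus strand) was at 115 ± 16.1 CPM in Aire-stage cells and highest in tuft-like cells at 253 ± 10.9 CPM (SD, n = 4). It was lower in Aire-stage cells than in tuft-like (-1.12 ± 0.12, SE), neuroendocrine-like (-0.87), immature-like (-0.72), keratinocyte-like (-0.71) and transit-amplifying-like cells (-0.48 ± 0.12). It did not differ past the threshold from microfold-like (0.21 ± 0.14) and enterocyte- or hepatocyte-like cells (0.19 ± 0.14), whose samples overlapped those of Aire-stage cells. Per cell, tuft-like cells had 3.26 ± 0.25 Chd4 UMIs and Aire-stage cells 2.21 ± 0.35 (SD, n = 4). Neuroendocrine-like cells had 4.16 ± 0.44 and transit-amplifying-like cells 4.11 ± 0.17, so the peak in tuft-like cells rests on CPM.

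Mbd1 had the lowest UMI sum in Aire-stage cells of the 9 genes, 437 UMIs over 1076 cells. It was at 20.5 ± 3.68 CPM there, at 42.5 ± 11.6 CPM in microfold-like cells and at 56.2 ± 18.1 CPM in the 43 ciliated-like cells (SD, n = 4). It was lower in Aire-stage cells than in microfold-like cells (-0.99 ± 0.24, SE, edgeR adjusted p = 0.0009764). In the other 6 contrasts its log2 fold change lay between -0.48 and 0.14 and did not pass. Per cell, Aire-stage cells had 0.394 ± 0.079 Mbd1 UMIs, microfold-like 0.461 ± 0.130 and transit-amplifying-like cells 0.475 ± 0.030 (SD, n = 4).

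**Figure D2:**
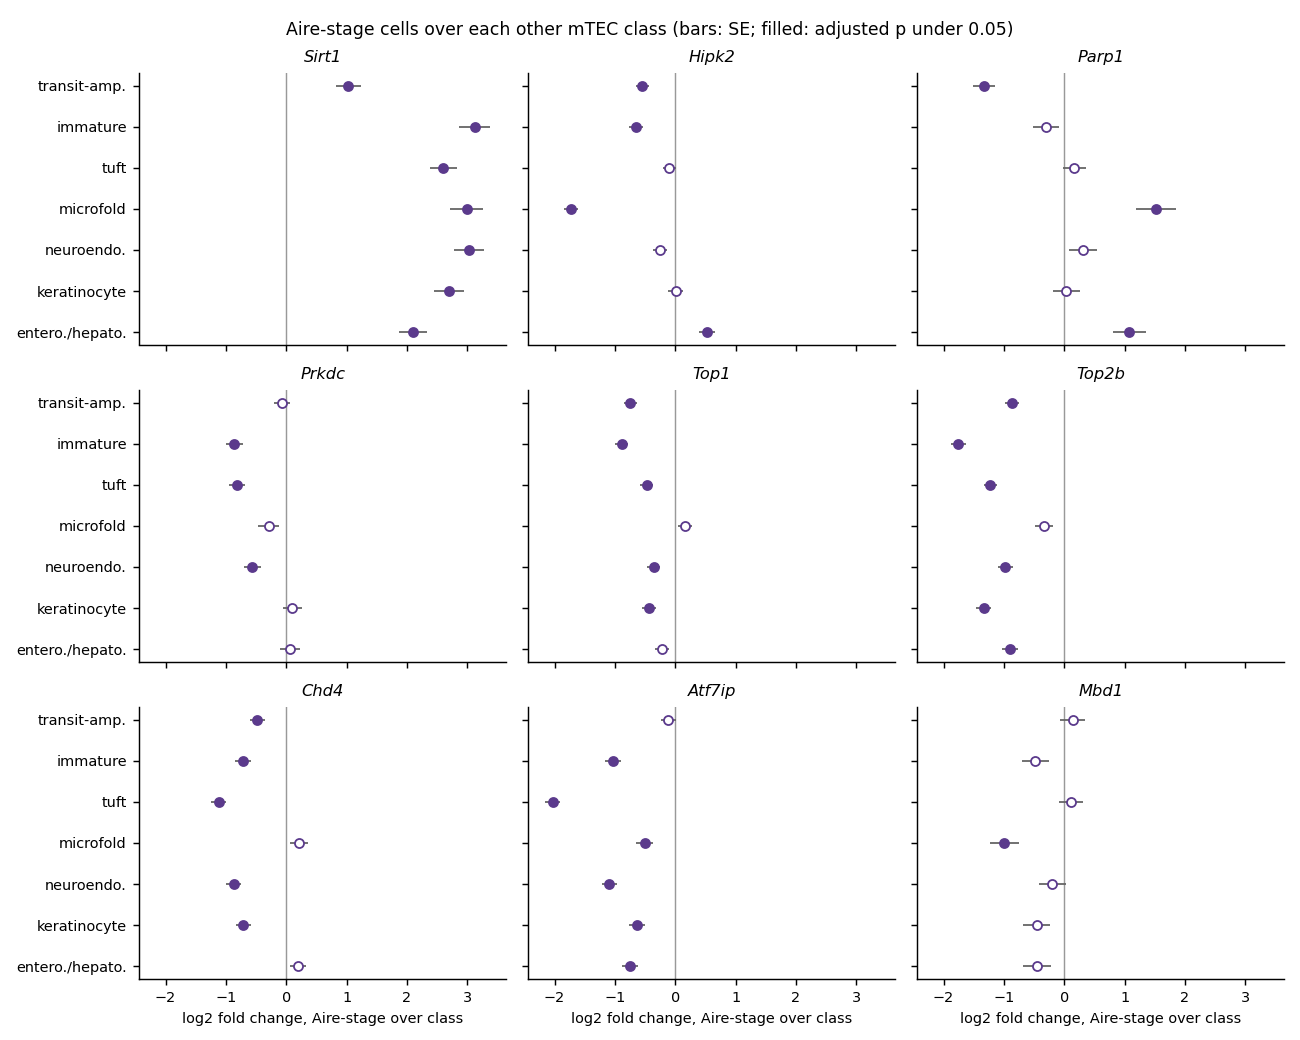
Log2 fold change of Aire-stage cells over each of 7 other mTEC classes (x axis) for each of the 9 genes, with SE bars, from edgeR over 4 hashed samples. Filled points passed an adjusted p of 0.05. All 7 points of Sirt1 are filled and right of 0 (1.02 to 3.12), and 6 of 7 points of Top2b and of Atf7ip are filled and left of 0.

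Known partners of these 9 genes, taken from 6 lists with 41 genes of which 40 were tested, were called lower in Aire-stage cells more often than higher in each contrast. Against transit-amplifying-like cells 6 were higher and 24 were lower, beside 32.2% and 26.7% of all genes tested. Their median log2 fold change was -0.74, beside 0.07 over all genes tested. Against tuft-like cells 2 were higher and 25 lower (median -0.54), beside 37.1% and 33.8% of all genes. Against immature-like cells it was also 2 and 25 (median -0.42), beside 32.1% and 27.8%. Against neuroendocrine-like cells 2 were higher and 23 lower (median -0.44), beside 32.4% and 28.6% of all genes, and against keratinocyte-like cells 3 and 21 (median -0.34), beside 29.4% and 27%. Against enterocyte- or hepatocyte-like cells it was 7 and 14 (median -0.10), beside 23.8% and 22.9%. Against microfold-like cells it was 4 and 12, beside 27.2% and 23% of all genes, with a median of -0.16 for the lists and 0.13 over all genes tested, so this contrast was the nearest to the background in its share of lower calls.

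The partners of DNA-PK and of topoisomerases at breaks were all 5 lower in Aire-stage than in transit-amplifying-like cells, beside 26.7% of all genes. Top2a, the topoisomerase of dividing cells, had a log2 fold change of -4.62 ± 0.35 (SE). H2ax, the histone that is phosphorylated at breaks, had -3.25 ± 0.19, Xrcc6, a subunit of the Ku clamp of DNA-PK, -1.64 ± 0.19, and the mismatch repair gene Msh6 -1.45 ± 0.30. Whether cell division bears on these values was not tested. Against tuft-like cells, where Top2a itself was at 10.1 CPM, 4 of the 5 were also lower (33.8% of all genes), with Xrcc6 at -1.81 ± 0.19 and Msh6 at -1.90 ± 0.29. Against enterocyte- or hepatocyte-like cells none was lower and 2 were higher, Xrcc5, the other Ku subunit, at 1.56 ± 0.42 and Top2a at 2.86 ± 0.83. Of all genes 22.9% were lower and 23.8% higher in that contrast.

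Of the 10 other NuRD subunits, 8 were lower and 2 higher in Aire-stage than in immature-like cells, and 6 lower and 2 higher against tuft-like cells. Of all genes 27.8% were lower and 32.1% higher in the immature contrast, and 33.8% and 37.1% in the tuft contrast. The methyl-binding subunit Mbd2 was at -1.18 ± 0.14 (SE) and -1.15 ± 0.13 in these contrasts, and Mta2 at -0.89 ± 0.14 and -1.46 ± 0.13. Rbbp7, a histone-binding subunit, went the other way against tuft-like cells (1.14 ± 0.14) and was lower against enterocyte- or hepatocyte-like cells (-1.68 ± 0.14).

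Of the 7 FACT and cohesin genes, which move nucleosomes ahead of the polymerase and hold DNA loops, 5 were lower and 0 higher against transit-amplifying-like cells, and 4 and 0 against tuft-like cells. Of all genes 26.7% were lower in the transit-amplifying contrast and 33.8% in the tuft contrast. The cohesin ring gene Smc1a had -1.57 ± 0.10 (SE) and the FACT subunit Ssrp1 -1.31 ± 0.10 against transit-amplifying-like cells, and the cohesin subunit Stag2 had -1.05 ± 0.10 against tuft-like cells. The Atf7ip partners Setdb1, the histone methyltransferase, and Trim28, its adaptor, were lower against transit-amplifying-like cells at -0.95 ± 0.19 and -1.66 ± 0.10. Against tuft-like cells, where Atf7ip itself differed most, neither passed the threshold.

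Of the 6 genes that acetylate, SUMO-modify or ubiquitinate proteins, 5 were lower against tuft-like cells, where 33.8% of all genes were, led by the SUMO ligase Pias1 at -1.25 ± 0.09 (SE) and the acetyltransferase Ep300 at -0.83 ± 0.11. Against transit-amplifying-like cells 3 were higher and 1 lower, with Pias1 at 0.30 ± 0.09, where 32.2% and 26.7% of all genes were. Of the 10 elongation and RNA processing genes, 6 were lower and 0 higher against tuft-like cells, beside 33.8% and 37.1% of all genes. The RNA helicase Ddx17 led them at -1.75 ± 0.11. Among 13 paralogs of the 9 genes, Hipk1 was at -2.80 ± 0.13 over tuft-like cells and 0.45 ± 0.14 over transit-amplifying-like cells, where Hipk2 itself was at -0.10 ± 0.11 and -0.55 ± 0.11. Chd3, the sister helicase of Chd4, was higher in Aire-stage than in tuft-like cells (1.05 ± 0.11) where Chd4 was lower (-1.12 ± 0.12). The sirtuins Sirt2, Sirt3, Sirt6 and Sirt7 are counted among the 13 paralogs, of which 1 to 3 were higher and 1 to 5 lower in each contrast. Of all genes 23.8% to 37.1% were higher and 22.9% to 33.8% lower. The median log2 fold change of the paralogs lay between -0.41 over immature-like cells and -0.04 over microfold-like cells. That of all genes tested lay between 0.02 and 0.13.

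Within the Aire-stage class, the cluster led by Klk1b genes differed from the Aire-high cluster in 4 of the 9 genes, where 30.1% of 13660 genes tested passed. Aire was lower in it by a log2 fold change of -1.07 ± 0.07 (SE, edgeR adjusted p = 0.0008553). The clusters were named by their Aire level and Aire was not left out of the clustering, so this direction was set beforehand. Sirt1 was lower by -0.43 ± 0.11 (edgeR adjusted p = 0.0268), Hipk2 by -0.70 ± 0.12 and Chd4 by -0.42 ± 0.10. Atf7ip was higher by 0.39 ± 0.10. In the Klk1b-led cluster Sirt1 had 349 and 278 CPM with spermidine and 329 and 207 CPM with PBS. In the Aire-high cluster it had 388 and 405 CPM with spermidine and 396 and 336 CPM with PBS. The clusters overlapped in Sirt1 by sample, while within each sample the Klk1b-led cluster was the lower one. This comparison was added after the data were seen.

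Spermidine changed no partner gene past the threshold in Aire-stage cells. Here 0 of 17761 genes passed in edgeR's test of 2 spermidine against 2 PBS samples (0% called), and 1282 had an unadjusted p under 0.05, among them Hipk2 and Parp1. With DESeq2 77 genes passed, none of them a partner gene. An exact permutation test over 2 and 2 samples cannot give a p below 0.333, and none is reported for single genes. CPM in this comparison were scaled within the class and differ slightly from the levels above. The Aire-high cluster made up 55.6% and 54.1% of the class with spermidine and 47.1% and 43.0% with PBS, so that most Aire-stage cells were in the Aire-high cluster with spermidine and in the Klk1b-led cluster with PBS.

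Hipk2 had 91.4 and 83.1 CPM in spermidine replicates 1 and 2, and 73.7 and 64.5 CPM in PBS replicates 1 and 2. Both spermidine values were above both PBS values, and the log2 fold change was 0.34 ± 0.12 (SE, edgeR adjusted p = 0.671). Parp1 had 34.4 and 29.3 CPM with spermidine and 24.6 and 20.5 CPM with PBS, again without overlap, at 0.50 ± 0.18 (edgeR adjusted p = 0.676). Mbd1 at 0.39 ± 0.20 and Chd4 at 0.26 ± 0.14 did not overlap either. So 4 of the 9 genes had both spermidine samples above both PBS samples, where 18.9% of all genes tested did. The cell with the most UMIs gave 6.86% to 13.2% of a sample's Parp1 count and 4.31% to 11.8% of its Chd4 count. For Hipk2 it gave 3.86% to 7.89% and for Mbd1 3.57% to 5.71%.

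The values of Parp1 within each of the clusters were as follows. In the Klk1b-led cluster alone Parp1 had 35.7 and 24.1 CPM with spermidine and 12.5 and 13.7 CPM with PBS, a log2 fold change of 1.20 ± 0.29 (SE, edgeR adjusted p = 0.76). In the Aire-high cluster alone it had 33.3 and 32.0 CPM with spermidine and 33.3 and 27.6 CPM with PBS, at 0.11 ± 0.20. No partner gene and no other gene passed within either cluster, and the difference between the clusters was not tested.

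Sirt1 had 377 and 361 CPM with spermidine and 371 and 271 CPM with PBS in Aire-stage cells, at 0.20 ± 0.16 (SE, edgeR adjusted p = 0.846). The groups overlapped, and the difference came from PBS replicate 2. Without it the log2 fold change was -0.0036. Prkdc (0.12 ± 0.18), Top2b (0.11 ± 0.14) and Atf7ip (0.02 ± 0.11) also overlapped, and each turned negative when a single sample was left out. Top1 was at -0.15 ± 0.11, with 174 and 159 CPM with spermidine and 197 and 172 CPM with PBS. A single cell gave 16.8% of the Top1 count of PBS replicate 1, against 3.45% to 6.06% in the other samples. No fit left out this cell alone. The median log2 fold change of the 9 genes was 0.20 beside -0.01 over all genes tested. Aire was at 0.18 ± 0.09 (edgeR adjusted p = 0.759).

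**Figure D3:**
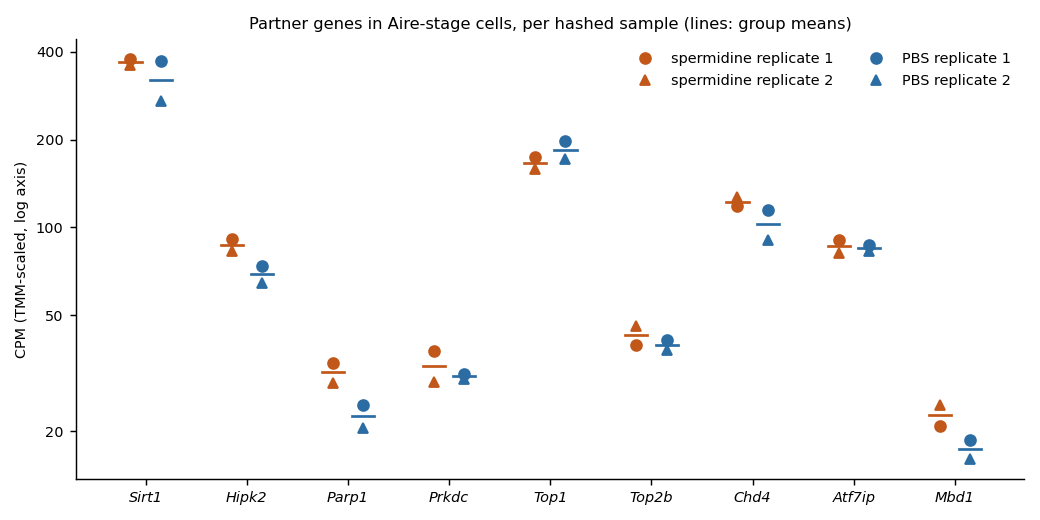
CPM of each of the 9 genes in Aire-stage cells (y axis, log scale) in the spermidine samples (orange, left) and the PBS samples (blue, right); short lines are group means over 2 samples. Hipk2, Parp1, Chd4 and Mbd1 do not overlap between the groups, and no gene passed an adjusted p of 0.05.

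When all mTEC classes were summed, 5 of 9 genes had an unadjusted p under 0.05, as had 3245 of the 21463 genes tested, and again 0 (0%) passed the threshold. Sirt1 had 221 and 202 CPM with spermidine and 125 and 139 CPM with PBS, a log2 fold change of 0.68 ± 0.09 (SE, edgeR adjusted p = 0.208). Beside Aire at 0.69 ± 0.22, Parp1 was at 0.37 ± 0.10, Hipk2 at 0.21 ± 0.07, Atf7ip at -0.30 ± 0.10 and Top2b at -0.20 ± 0.07. In 6 of the 9 genes, those 5 and Chd4, the groups did not overlap, as did 49.1% of all genes tested. The Aire-stage share of kept cells was 34.7% and 34.7% with spermidine and 18.9% and 28.2% with PBS, and sorting and pooling can set this share. Its part in the summed values was not tested, and the values within Aire-stage cells are those given above.

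In transit-amplifying-like cells 0 of 11834 genes (0%) passed. Sirt1 had 175 and 179 CPM with spermidine and 124 and 149 CPM with PBS, at 0.37 ± 0.11 (SE, edgeR adjusted p = 0.41), the only partner gene there with an unadjusted p under 0.05. The smaller of the 2 clusters of these cells made up 19.3% and 14.7% with spermidine and 28.8% and 38.7% with PBS. Top2a had 260.4 and 225 CPM with spermidine and 412 and 543 CPM with PBS, at -0.97 ± 0.14 (edgeR adjusted p = 0.0726), and whether this cluster share bears on Sirt1 was not tested.

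In the other 6 classes no partner gene passed either. The background was 15 of 12720 genes in tuft-like cells (0.118%), 4 of 9008 in keratinocyte-like cells (0.0444%) and 0% in immature-like, microfold-like, neuroendocrine-like and enterocyte- or hepatocyte-like cells. Parp1 was not tested in microfold-like cells for low counts. The values farthest from 0 in these classes were those of Mbd1 at -1.09 ± 0.39 (SE, edgeR adjusted p = 0.858) in enterocyte- or hepatocyte-like cells and Parp1 at 0.995 ± 0.40 (edgeR adjusted p = 0.602) in keratinocyte-like cells. Sirt1 was above 0 in 7 of the 8 classes and at -0.59 ± 0.33 in keratinocyte-like cells. Of the partner and paralog lists, 0 genes passed in any class.

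**Figure D4:**
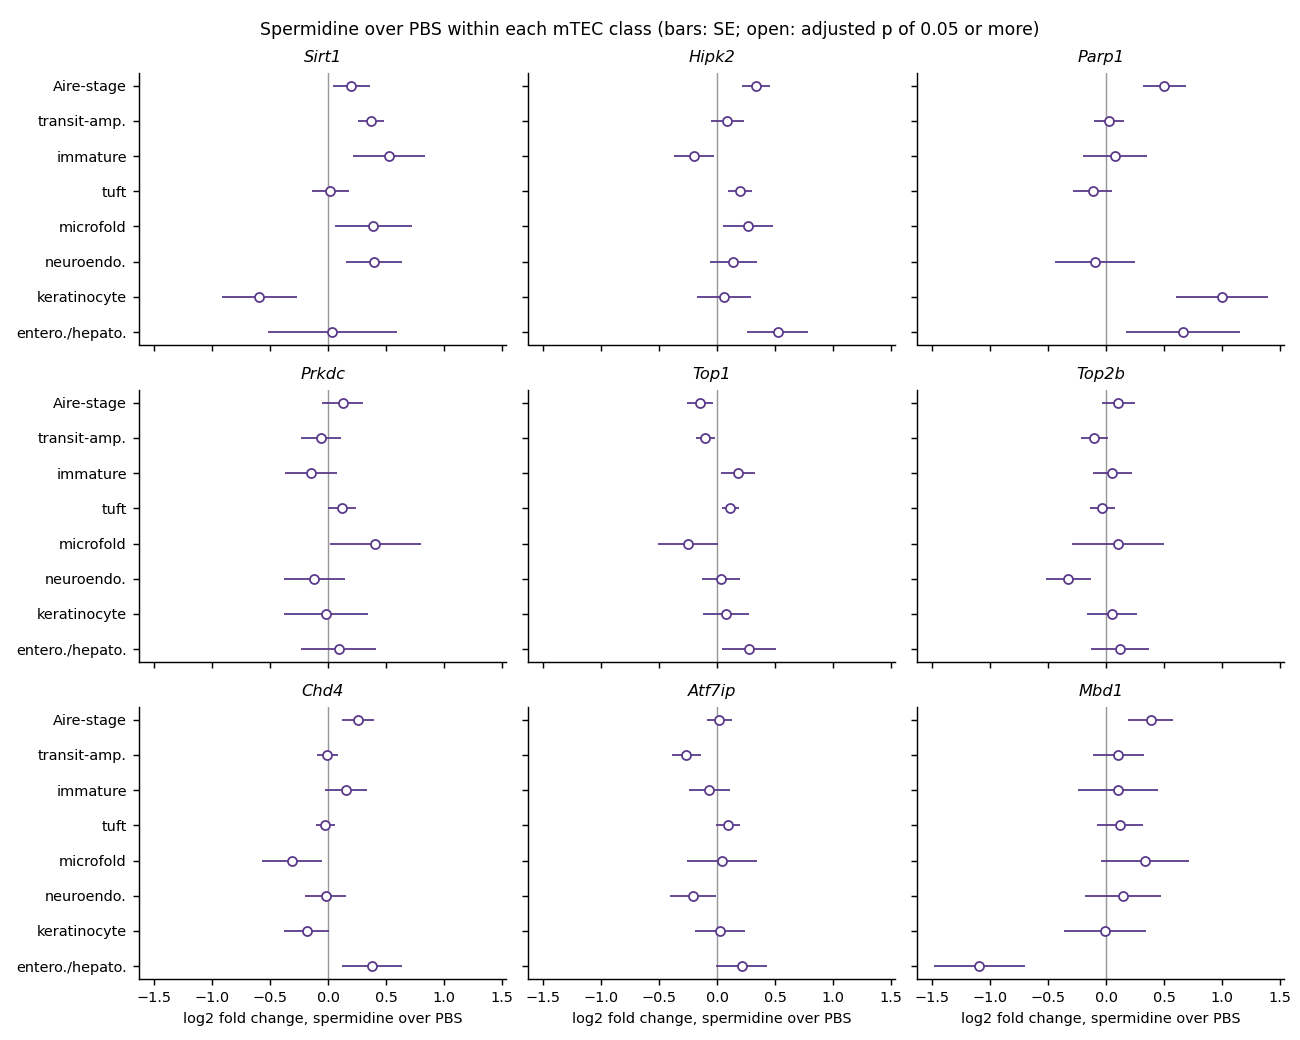
Log2 fold change of spermidine over PBS (x axis) for each of the 9 genes within each of 8 mTEC classes, with SE bars, from edgeR over 2 and 2 hashed samples. All points are open, since none passed an adjusted p of 0.05, and Parp1 has no point in microfold-like cells. SE bars are widest in the classes with few cells.

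The effect of spermidine in Aire-stage cells was also compared with that in each other class in 1 model. None of the 9 genes passed in any of the 7 comparisons, where 0% of 14625 genes passed in 5 of them, 0.00684% against keratinocyte-like and 0.0205% against enterocyte- or hepatocyte-like cells. The partner gene with the lowest p was Mbd1, whose effect in Aire-stage cells minus that in enterocyte- or hepatocyte-like cells was 1.47 ± 0.39 on the log2 scale (SE, edgeR adjusted p = 0.341). Parp1 against microfold-like cells was at 2.04 ± 0.61 (edgeR adjusted p = 0.771) and Hipk2 against immature-like cells at 0.57 ± 0.20 (edgeR adjusted p = 0.788). In simulated counts with the same assumed dispersion for every gene, the test on Aire-stage cells found 61% of 2-fold and 12% of 1.5-fold changes. In a simulation of fewer classes than were fitted here, the test of the difference from tuft-like cells found 18% and 1%. Changes were planted only in genes with higher counts, and the dispersion was not estimated from these samples. The largest log2 fold change of a partner gene in Aire-stage cells, 0.50, is below 1.5-fold. Even 1.5-fold changes were mostly not found in the simulated counts, and what could be detected in the real samples was not tested.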

How the data were processed

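The authors deposited raw UMI counts for each gene in each barcode, which Cell Ranger 7.1.0 wrote, per the file headers. The submitters' processing notes also name mm10, bcl2fastq and Seurat. The sources used here do not give the gene annotation. From these counts 8534 of 12139 barcodes were kept, by limits of 1000 or more UMIs, 500 or more genes and less than 15% of UMIs from mitochondrial genes. HTODemux of Seurat 5.3.0 (quantile 0.99) then assigned samples from 6 hashtags, HT2 to HT7: 3739 barcodes had 1 of HT2 to HT5 alone, 1831 were doublets and 532 negatives. Of the hashtags counted, 11 have no sample in the labels, and HT6 and HT7 of these served to leave out 2432 barcodes. No doublet caller on RNA was run.

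Cells were clustered in scanpy 1.11.5 (2000 variable genes without the 9 genes, their partners and paralogs, 30 components, 15 neighbours, Leiden resolution 1) into clusters named from 18 marker lists. A cluster took the list with the most markers over 2-fold higher, at least 3. The counts of each class were added up within each hashed sample and tested with edgeR 4.0.16 in R 4.3.3 (TMM, filterByExpr with minimum count 10 and total 15, quasi-likelihood, Benjamini-Hochberg at 0.05). Classes with at least 20 cells per sample were fitted. The SE of a log2 fold change was derived from its quasi-likelihood test, as its absolute value over the square root of the F statistic. The tests ran on all genes and only the rows of the named genes are given: the 9 genes, Aire, up to 4 called genes per list and comparison by smallest p, and the 2 genes most like each in Pearson's r over the classes (log2 of CPM plus 0.5, genes with at least 10 CPM in a class). The members and lists were chosen with earlier results of these data known. Gene positions came from GENCODE M21 (GRCm38). Recovery was tested on simulated data. Alternatives were DESeq2 1.42.0, no filter on low counts, assignment from 4 hashtags or by a margin rule (top hashtag at least 3 times the next), a 10% mitochondrial limit, counts capped per cell, Leiden resolution 0.5, cells thinned to 5000 UMIs, no TMM factors, blocks, and leaving out each sample.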

Additional observations from a re-analysis of the deposited data

Results flagged for a closer look

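Among 72 sets of 4 samples (9 genes in 8 classes), 2 held a sample far from the other 3, and chance flags about 1 in 20 such sets. Sirt1 in Aire-stage cells was at 276 CPM in PBS replicate 2, with 387 and 369 CPM in the spermidine replicates and 381 CPM in PBS replicate 1. Top2b in immature-like cells was at 153 CPM in spermidine replicate 1, against 139 to 142 CPM in the others.

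Outside the comparisons, 2432 barcodes that passed the filters carried HT6 or HT7 alone. The labels give these hashtags no sample, and their cells entered no comparison.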

How the results depend on the processing

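The 40 of 63 class contrasts that passed for the 9 genes ranged from 37 to 45 over the alternatives that fitted all 7 other classes. They were 35 by the margin rule and with the 10% mitochondrial limit, which fitted 6 other classes, and 39 to 44 without single samples. The highest class in CPM was compared with thinned cells, without TMM factors, at Leiden resolution 0.5 and without single samples. In each of these 8 or 9 of the 9 genes kept it, and it was not compared in the other settings. Of the 63 contrasts times alternatives, 459 stayed on their side of the threshold, 14 passed anew, 5 no longer passed and 8 turned their sign. These were Hipk2 over keratinocyte-like cells (-0.0194 with 4 hashtags, -0.0325 with capped counts) and tuft-like cells (0.0282 with DESeq2, 0.1079 at Leiden resolution 0.5), Prkdc over transit-amplifying-like cells (0.0269 with DESeq2) and enterocyte- or hepatocyte-like cells (-0.0440 with the 10% mitochondrial limit), and Parp1 over immature-like cells (0.2366 at resolution 0.5) and tuft-like cells (-0.0639 by the margin rule). Without single samples 4 more turned: over keratinocyte-like cells Parp1 (-0.2158 to 0.1718), Hipk2 (-0.0576 to 0.0876) and Prkdc (-0.0489 to 0.2254), and over tuft-like cells Mbd1 (-0.00450 to 0.2201). None of these passed the threshold. The cause was not tested. At Leiden resolution 0.5 the Aire-stage class was a single cluster of 651 cells. Klk1b26 led a cluster of 655 cells there that took the name enterocyte or hepatocyte. Results at that resolution thus rest on other sets of cells than those described above. DESeq2 moved the median of all genes over tuft-like cells to 0.15, against 0.03 with TMM, and lost no call of the 9 genes.

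No partner gene passed for spermidine under any alternative, except 1 in another class without the filter on low counts. In Aire-stage cells Top2b turned to -0.0314 with 4 hashtags, and Atf7ip to -0.00436 at resolution 0.5 and -0.0526 in the Aire-high cluster alone. Without single samples the sign also turned for Sirt1 (-0.00364 to 0.4438), Prkdc (-0.0662 to 0.2893), Top2b (-0.00589 to 0.2184) and Atf7ip (-0.0573 to 0.0922). The 0 genes called in Aire-stage cells were 77 with DESeq2, 1003 without the filter and 0 to 2 without single samples. The 19 genes called in the other classes were 34 with 4 hashtags, 126 with DESeq2, 91 with capped counts, 8 by the margin rule, 5 with the 10% limit, 2099 without the filter and 262 to 490 without single samples. The 4 genes called for differences of the effect were 11 with capped counts, 7 with the hashed sample as a replicate block, 1307 without the filter and 2 to 22 without single samples. By the margin rule and with the 10% limit 1 class fewer could be fitted. Replicate numbers paired no samples, since same-numbered samples correlated at -0.074 to 0.067 in their deviations. With the replicate number as a block 321 genes passed in the other classes and 0 in Aire-stage cells.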
